A study of Mus musculus with 4 samples.

Results

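The 10 genes of a Notch pathway list were followed through the nuclei of adult mouse hearts: the receptors Notch1, Notch2, Notch3 and Notch4, the ligands Dll4, Jag1 and Jag2, and the target genes Hey1, Hey2 and Heyl. They were chosen by symbol, and all 10 were found among the 32287 features of each count matrix and among the 25820 genes with at least 1 UMI in the nuclei kept. A UMI is a molecular tag, so that copies of a molecule are counted once. The libraries came from hearts of C57BL/6 mice at 6 months of age, with 3 hearts pooled per library and 1 library per genotype. The genotypes were a homozygous RBM20 mutation after gene editing correction (the corrected library), the homozygous mutation without correction (the homozygous library), the heterozygous mutation (the heterozygous library) and wild type (WT). The labels give neither the allele nor the editor, its delivery or the time of treatment. Total cardiac nuclei were used, although the protocol text also speaks of CD45+ immune cells. Rbm20 encodes a splicing regulator of cardiomyocytes, and the mutation, a change in sequence, cannot be read from counts per gene, so the genotype labels were not checked here.

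Notch signalling passes between touching cells. A ligand of the Delta-like or Jagged family on one cell binds a Notch receptor on its neighbour, the receptor is cut by a metalloprotease and then by gamma-secretase, and the freed intracellular part joins the DNA-binding protein Rbpj to switch on genes of the Hes and Hey families, which are transcriptional repressors. In blood vessels Dll4 and Notch1 are known for setting arterial identity and sprouting, Notch4 is a receptor of endothelial cells, Jag1 is a ligand of endothelial and mural cells, and Notch3 is the receptor of pericytes and smooth muscle. Hey1 and Hey2 take part in arterial and cardiac development, and Heyl is a target gene known from mural cells.

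The deposited files held 15153 barcodes and 51422458 UMIs in the corrected library, 11611 and 52370368 in the homozygous, 9734 and 42375104 in the heterozygous, and 9494 and 37180791 in the WT library. Pairs of libraries shared 26 to 56 barcodes. Nuclei were clustered without the Notch genes and grouped into 10 classes by markers that hold none of them, so every class is a cluster that resembles its cell type and no more. Left out were B cell-, T cell-, Schwann- and mesothelial-like nuclei, with under 50 nuclei in some library, and cycling nuclei. Unnamed clusters, also left out, held 769, 668, 678 and 587 nuclei in the corrected, homozygous, heterozygous and WT libraries. Statements about any other class cover these 10 classes only. The classes held between 76 nuclei (smooth muscle-like, WT) and 3639 nuclei (fibroblast-like, corrected). Levels are a gene's UMIs for every 1000000 UMIs of the class outside mitochondrial genes (CPM), with exact Poisson 95% intervals, and ratios have exact conditional binomial 95% intervals. Neither kind of interval covers more than counting error. A genotype had no replicate library, so genotypes could not be tested against each other, and each difference given is one between libraries. Levels depend on gene length and on where reads were primed, and are compared here within a gene.

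Several classes were made of different clusters in the homozygous library and the others. Of the ventricular cardiomyocyte-like nuclei, a cluster led by Syndig1, Masp1 and Kctd16 held 286 in the corrected library, 2911 in the homozygous, 145 in the heterozygous and 56 in WT. The cluster led by Mylk4, Ucp3 and Myh7b held 2813, 70, 2271 and 2901 in the same order. Of the fibroblast-like nuclei, a cluster led by Cilp and Ltbp2 held 157, 2715, 166 and 47, and one led by Col6a6, Gfra1 and Enpp2 held 3206, 316, 1961 and 1595. Every comparison of the homozygous library within these classes is a comparison between clusters as well. The markers that named the classes were also summed in them, which describes the classes and is no check of their names. All 14 arterial markers were detected in arterial-like nuclei, summing to 10839.6 to 12635 CPM against 2325 to 3797 CPM in capillary-like nuclei. The 12 pericyte markers summed to 7689 to 10466 CPM in pericyte-like and 1643 to 2409 CPM in smooth muscle-like nuclei. Of the 12 smooth muscle markers 11 were detected in smooth muscle-like nuclei, with Sost at 0.

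Promoter sequences of 8 of the 10 genes were found in RefSeq (GRCm38.p6), each from 250 bases before to 50 after the start. Those of Hey2, Notch4, Notch2 and Notch3 are shown because the differences between libraries described below turn on these genes. Capitals mark the core of the Rbpj motif, TGGGAA, or its reverse complement TTCCCA.
Hey2 (chr10:30842734-30843033, minus strand): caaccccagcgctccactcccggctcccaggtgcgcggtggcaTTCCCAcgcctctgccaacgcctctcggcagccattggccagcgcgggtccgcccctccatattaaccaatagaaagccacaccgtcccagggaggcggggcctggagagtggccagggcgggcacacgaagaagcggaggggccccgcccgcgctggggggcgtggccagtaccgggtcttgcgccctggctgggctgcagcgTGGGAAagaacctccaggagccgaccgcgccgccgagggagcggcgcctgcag
Notch4 (chr17:34564045-34564344, plus strand): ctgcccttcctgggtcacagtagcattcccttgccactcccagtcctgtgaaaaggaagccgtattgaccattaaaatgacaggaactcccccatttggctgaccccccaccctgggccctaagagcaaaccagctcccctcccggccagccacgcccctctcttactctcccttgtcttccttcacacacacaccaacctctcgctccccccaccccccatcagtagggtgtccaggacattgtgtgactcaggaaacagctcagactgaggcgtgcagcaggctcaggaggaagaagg
Notch2 (chr3:98013288-98013587, plus strand): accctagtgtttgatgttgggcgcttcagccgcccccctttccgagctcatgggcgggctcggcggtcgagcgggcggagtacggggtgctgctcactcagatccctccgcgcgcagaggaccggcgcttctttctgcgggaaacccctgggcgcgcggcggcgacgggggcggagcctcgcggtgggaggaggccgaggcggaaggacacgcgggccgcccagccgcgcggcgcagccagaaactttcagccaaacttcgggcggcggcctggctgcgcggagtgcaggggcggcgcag
Notch3 (chr17:32166841-32167140, minus strand): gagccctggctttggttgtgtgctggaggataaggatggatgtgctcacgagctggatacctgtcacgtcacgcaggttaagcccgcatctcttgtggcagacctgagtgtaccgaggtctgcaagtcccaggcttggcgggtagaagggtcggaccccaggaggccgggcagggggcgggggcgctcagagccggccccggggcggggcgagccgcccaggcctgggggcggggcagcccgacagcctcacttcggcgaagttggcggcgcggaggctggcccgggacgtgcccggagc
The Rbpj core occurred in Hey2 at positions -207 and -3 relative to the start, and in none of the other 7 promoters that were found. On either strand it occurs in 25.6% of 32851 mouse promoters of the same length, so a match is a description of letters and not of a binding site. The ETS core CCGGAA (14.9% of promoters) and the E-box CACGTG (7.15%) were found in none of the 8. By the GRCm38 annotation Notch1, Dll4 and Jag1 lie on chromosome 2, Notch2 and Hey1 on chromosome 3, Heyl on chromosome 4, Hey2 on chromosome 10, Jag2 on chromosome 12, and Notch3 and Notch4 on chromosome 17. All 10 are protein-coding. Genes on the opposite strand overlap Notch1 (0610009E02Rik and Gm13568), Notch3 (Gm17276), Notch4 (Gm20462) and Dll4 (Gm14207), and whether counting used strand is not given in the sources used here, so reads of such partners could be among theirs. On the same strand, Gm42819 and Gm42820 overlap Notch2, Mir6996 overlaps Notch1 and Mir6941 overlaps Jag2, and their effect on the counts was not tested.

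The receptors differed in the class where each was highest, as the heat map of all 10 genes by class and library shows. Notch1 was highest in arterial endothelial-like nuclei, with 251 CPM in the corrected, 264 in the homozygous, 361 in the heterozygous and 296 in the WT library. Endocardial-like nuclei had 212 to 259.6 CPM and lymphatic endothelial-like nuclei 168 to 249.8 CPM of Notch1, so neighbours in this order overlapped across the 4 libraries. Capillary endothelial-like nuclei had 120.1, 135, 157 and 134 CPM, below every arterial, endocardial and lymphatic value. Pericyte-like nuclei had 69.4 to 108 CPM, and cardiomyocyte-like nuclei 1.96 to 2.91 CPM.

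Notch4 was an endothelial receptor with an arterial peak. Arterial-like nuclei had 169.6 CPM in the corrected library, 244 in the homozygous, 282 in the heterozygous and 279 in WT. Capillary-like nuclei had 106, 162, 137 and 159 CPM, and the lowest arterial value lay above the highest capillary one. An endothelial class led by Kirrel3 and Col13a1, which took no subtype name, had 76.2 to 114 CPM, and endocardial-like nuclei had 38.1 to 64.2 CPM. Cardiomyocyte-like nuclei had the least, at 1.04 to 1.21 CPM.

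Notch2 and Notch3 were each highest in a class outside the endothelium, although lymphatic endothelial-like nuclei came second for Notch2. Notch2 was highest in macrophage-like nuclei, at 289 CPM in the corrected, 219.9 in the homozygous, 239 in the heterozygous and 251 in the WT library, above every value of any other class. Lymphatic-like (122 to 170.3 CPM), smooth muscle-like (123 to 155) and fibroblast-like nuclei (109.9 to 134) followed and overlapped. Capillary-like nuclei had 19.2 to 34.0 CPM and arterial-like nuclei 5.47 to 27.5 CPM. The arterial values rest on 23 UMIs in all. Notch3 was a mural gene. Pericyte-like nuclei had 1109, 982, 1221 and 1422 CPM and smooth muscle-like nuclei 1020.3, 1001, 984 and 1234 CPM in the corrected, homozygous, heterozygous and WT libraries. These ranges overlapped, and the next class, macrophage-like, had 51.4 to 132 CPM.

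**Figure D1:**
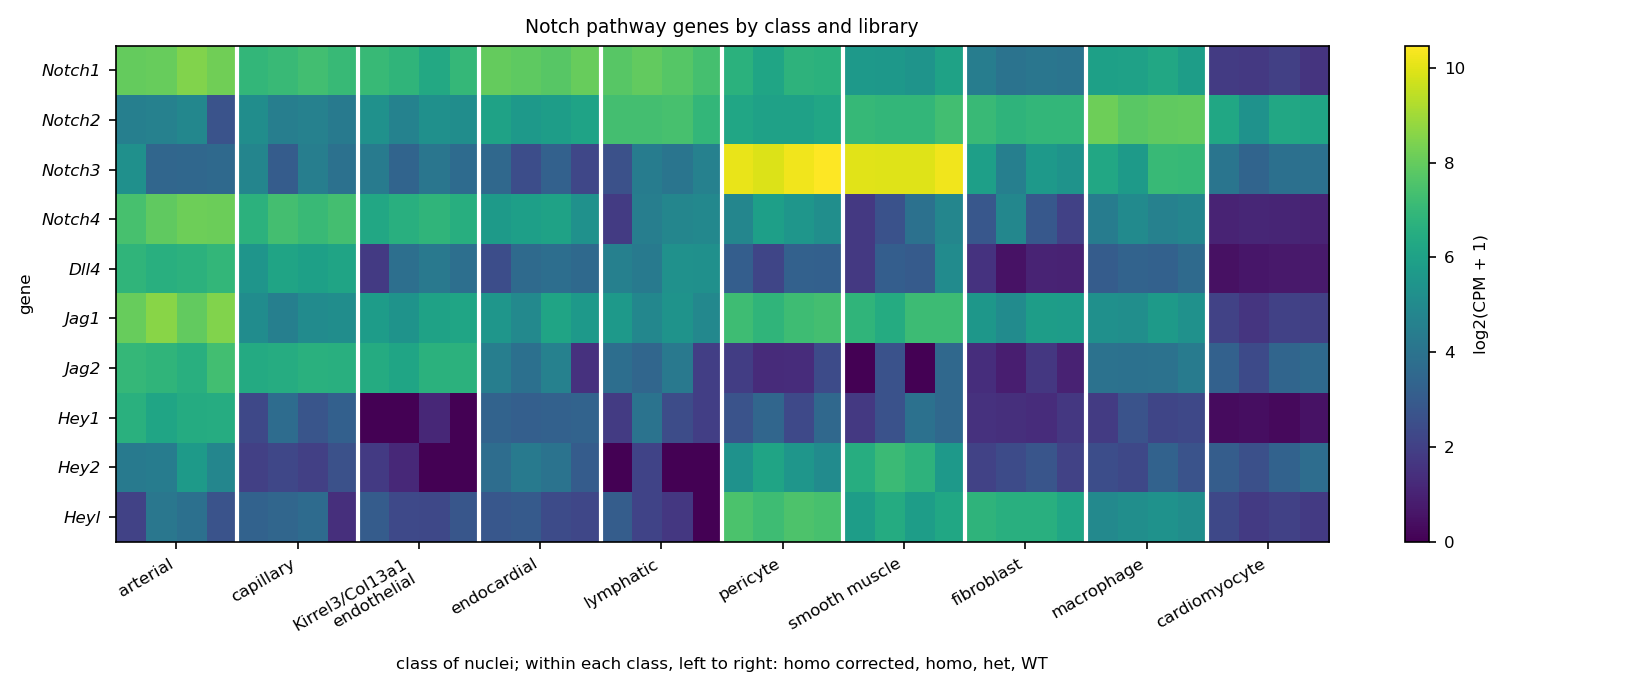
Heat map of the 10 genes (rows) in 10 classes of nuclei, each with 4 columns for the corrected, homozygous, heterozygous and WT libraries; colour is log2(CPM + 1). Notch3 and Heyl are brightest in pericyte-like nuclei, Notch2 in macrophage-like nuclei, and Hey1, Dll4 and Jag1 in arterial endothelial-like nuclei, where Jag1 averaged 315 CPM.

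The share of nuclei with a UMI told the same of Notch3. It was 81.7% of pericyte-like nuclei in the corrected, 82.2% in the homozygous, 87.1% in the heterozygous and 89.5% in the WT library, at median depths of 1895, 2076, 2193 and 2049 UMIs. In cardiomyocyte-like nuclei, which are not expected to make Notch3, it was 7.37%, 5.83%, 8.12% and 7.13%, at median depths of 4519, 5908, 5722 and 4866 UMIs. After each nucleus was thinned to 1000 UMIs the share of pericyte-like nuclei was 63.5%, 60.8%, 67.5% and 68.5%.

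All 3 ligands were highest on average in arterial endothelial-like nuclei. Dll4, the Delta-like ligand of vessels, had 116, 96.8, 107 and 120.4 CPM there in the corrected, homozygous, heterozygous and WT libraries, against 42.8, 68.6, 60.9 and 69.3 CPM in capillary-like nuclei. The 2 classes did not overlap, and capillary-like nuclei in turn lay above lymphatic-like nuclei at 18.2 to 38.1 CPM. Jag1 had 261, 387, 251 and 361 CPM in arterial-like nuclei and 33.6, 22.0, 32.3 and 34.2 CPM in capillary-like nuclei. Between them lay the mural classes, with 115 to 163 CPM of Jag1 in pericyte-like and 86.5 to 144 CPM in smooth muscle-like nuclei. Jag2 was spread more evenly over the endothelium. It had 96.4 to 159 CPM in arterial-like, 83.2 to 98.3 CPM in capillary-like and 71.3 to 106 CPM in Kirrel3- and Col13a1-led nuclei, which overlapped, and at most 23.5 CPM in any other class.

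The 3 target genes were highest in different classes. Hey1 was arterial, with 101 CPM (32 UMIs), 70.1 (21), 86.0 (25) and 87.6 (16) in the corrected, homozygous, heterozygous and WT libraries, and no other class passed 14.9 CPM in any library. Hey2 led in smooth muscle-like nuclei, at 48.1 to 141 CPM, followed by pericyte-like nuclei at 32.2 to 68.7 CPM and arterial-like nuclei at 18.8 to 51.6 CPM, with overlap at each step. Heyl was highest in pericyte-like nuclei, at 182, 149.5, 186 and 172 CPM, above every fibroblast-like value. Fibroblast-like nuclei had 71.7 to 112 CPM and smooth muscle-like nuclei 56.2 to 86.5 CPM of Heyl.

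Arterial and capillary endothelium were then compared within each library. Jag1 was 7.76 to 17.6 times, Hey1 5.90 to 26.6 times and Hey2 5.47 to 17.6 times as high in arterial-like as in capillary-like nuclei. These 3 of the 10 genes were at least 2-fold higher in each of the 4 libraries, a rule that 1.75% of the 11675 genes with at least 30 UMIs met. Hey2 rests on 32 arterial and 21 capillary UMIs over the 4 libraries. The other arterial genes differed by less: Notch1 was 1.95 to 2.30 times, Notch4 1.51 to 2.06 times and Dll4 1.41 to 2.71 times as high in arterial-like nuclei. Jag2 was 0.980 to 1.65 times as high, so it did not separate the 2 classes. Arterial-like nuclei were shallow, with a median of 1568 UMIs over the 4 libraries. Capillary-like nuclei were shallow too, with medians of 1431 to 1584 UMIs per library against 1464 to 1693 in arterial-like nuclei.

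**Figure D2:**
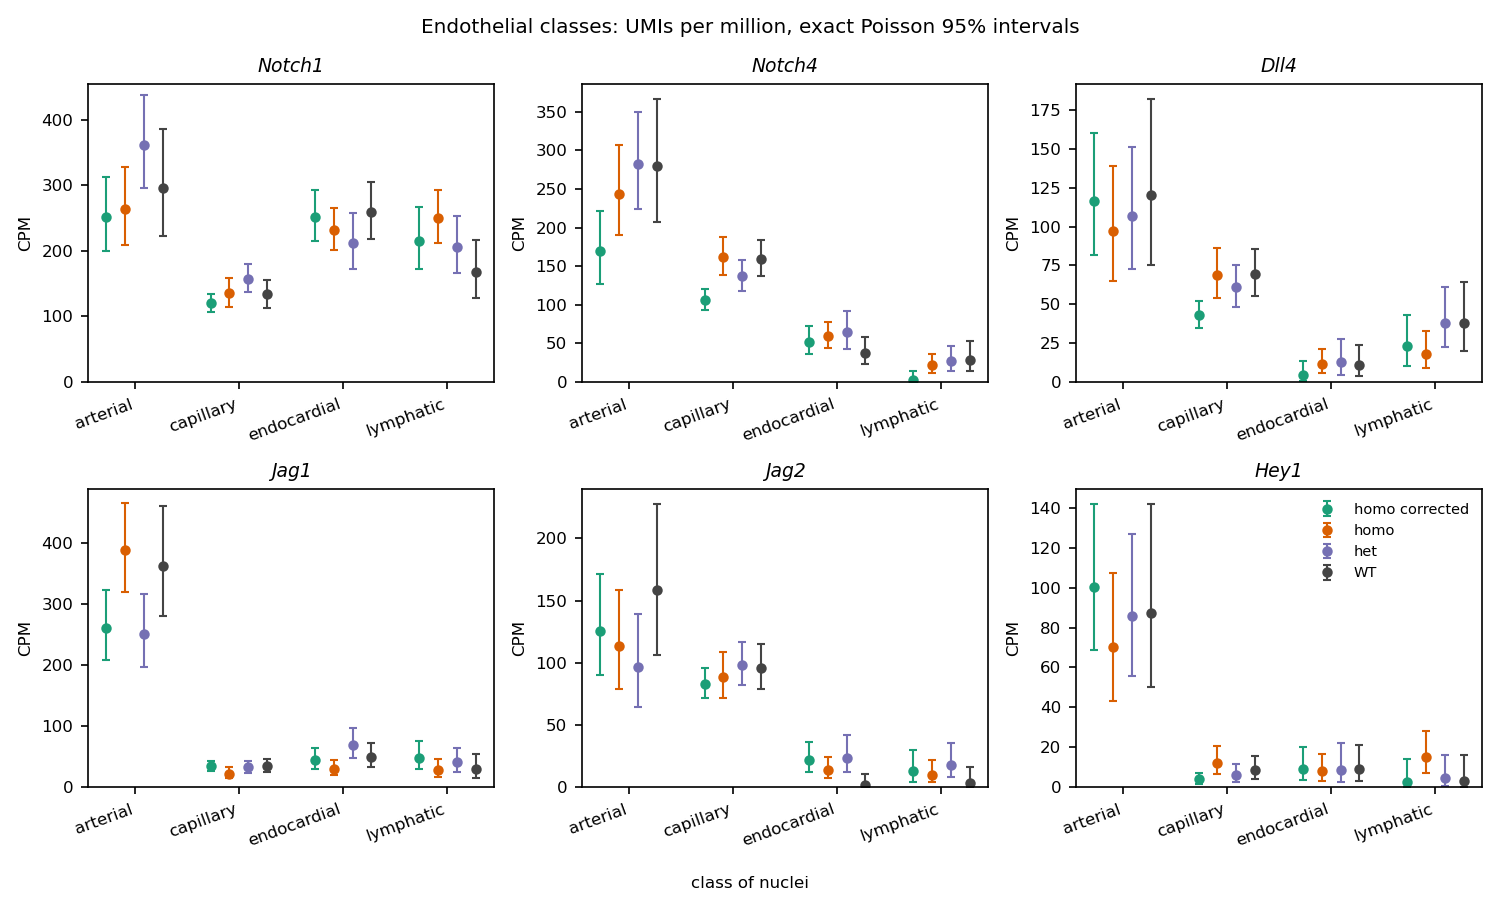
Levels (CPM, points) with exact Poisson 95% intervals (bars) of Notch1, Notch4, Dll4, Jag1, Jag2 and Hey1 in arterial, capillary, endocardial and lymphatic endothelial-like nuclei, coloured by library. Jag1 and Hey1 stand high in arterial-like nuclei in all 4 libraries, and Notch4, Dll4 and Jag2 are low in endocardial- and lymphatic-like nuclei.

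Endocardial- and lymphatic-like nuclei had more Notch1 than capillary-like nuclei and less Notch4, Dll4 and Jag2. Against capillary-like nuclei, Notch4 was 0.239 to 0.489 times, Dll4 0.107 to 0.211 times and Jag2 0.0189 to 0.257 times as high in endocardial-like nuclei. These 3 of 10 genes were at least 2-fold lower in each library, as were 4.67% of all genes, and none was 2-fold higher in each library, as were 4.92%. In lymphatic-like nuclei Notch2 was 4.78 to 7.63 times as high as in capillary-like nuclei, 1 of 9 measured genes against 4.96% of all. Notch4 (0.0239 to 0.196 times) and Jag2 (0.0302 to 0.182 times) were lower there, 2 of 9 against 4.94% of all.

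No member separated the mural classes by this rule. None of 9 measured genes was 2-fold higher in smooth muscle-like than in pericyte-like nuclei in each library, against 3.27% of all genes. Hey2 came near, at 1.49 to 2.44 times, and Notch2 was 1.76 to 2.15 times as high. Heyl was 0.302 to 0.578 times as high in smooth muscle-like nuclei.

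The genotypes were compared class by class, counting a gene where its CPM differed by at least 1.5-fold and it had at least 30 UMIs in both libraries together. In the homozygous library against WT this held for 15 of 59 combinations of gene and class, 5 higher and 10 lower, or about the rate of all genes in these classes, 26.0%. The corrected against the homozygous library gave 20 of 63, 12 higher and 8 lower, beside 22.1% of all. The corrected library against WT gave 12 of 62, 6 in each direction, beside 16.8%, and the heterozygous library against WT 7 of 61, 5 higher and 2 lower, beside 14.8%. The comparisons share libraries and are not independent. Of these 54 combinations, 23 stayed past 1.5-fold in the same direction in every alternative that gave a value, out of 7 that changed the scaling, the nuclei kept, the clustering or the depth, and 31 did not.

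In cardiomyocyte-like nuclei the homozygous library had less Notch2, Jag2 and Hey2. Notch2 had 74.5 CPM (1181 UMIs) in the corrected library, 39.5 (785) in the homozygous, 76.3 (1207) in the heterozygous and 70.4 (1151) in WT. The homozygous library stood apart, and the other 3 lay close together. Its ratio to WT was 0.561 (0.511 to 0.614), a log2 ratio of -0.84, and the corrected library had 1.89 times (1.72 to 2.07) the level of the homozygous one. Fibroblast-like nuclei, a class with more Notch2, had 134 CPM in the corrected, 109.9 in the homozygous, 122 in the heterozygous and 123 in the WT library.

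Jag2 in cardiomyocyte-like nuclei had 8.45 CPM (134 UMIs), 4.07 (81), 9.67 (153) and 11.01 (180) in the corrected, homozygous, heterozygous and WT libraries. The homozygous library was again the low one, with a ratio to WT of 0.370 (0.281 to 0.483), and the corrected library had 2.08 times (1.56 to 2.77) its level. Hey2, known in cardiomyocytes for ventricular identity, had 7.63 CPM (121 UMIs), 4.88 (97), 8.78 (139) and 12.4 (203). Here the corrected and heterozygous libraries lay between the homozygous and WT, at 1.57 times (1.19 to 2.07) the homozygous level and 0.615 times (0.487 to 0.774) the WT level for the corrected library. The homozygous library's ratio to WT was 0.393 (0.305 to 0.503) for Hey2.

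**Figure D3:**
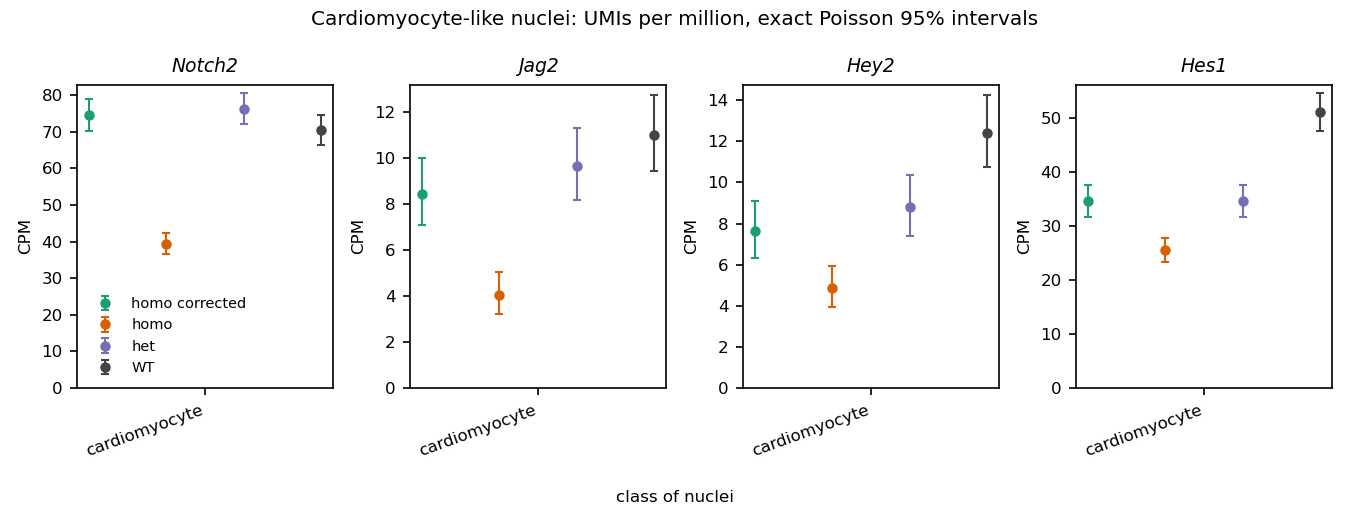
Levels (CPM, points) with exact Poisson 95% intervals (bars) of Notch2, Jag2, Hey2 and Hes1 in ventricular cardiomyocyte-like nuclei of the 4 libraries. The homozygous library is the lowest in each panel, with 39.5 CPM of Notch2 against 70.4 in WT.

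By count, 3 of 8 measured genes were lower and none was higher in cardiomyocyte-like nuclei of the homozygous library than in WT, while 35.5% of all genes passed 1.5-fold in either direction. The corrected library against the homozygous gave 6 of 8 higher and none lower, beside 27.5% of all genes: Notch2, Notch3, Jag1, Jag2, Hey2 and Heyl. This count depended on the scaling. With TMM factors from edgeR 3 of 8 passed (Notch2, Notch3 and Jag2), and with median-of-ratios factors 2 of 8 (Notch2 and Jag2). For Jag1 (50 UMIs in the corrected and 41 in the homozygous library) the interval of the ratio included 1. The median log2 ratio of the 8 genes was -0.56 for the homozygous library against WT, and 0.66 for the corrected against the homozygous. The median of all genes with at least 100 UMIs was itself -0.19 and 0.11 in these comparisons. With TMM factors that median was -0.02 for the homozygous library against WT, and the log2 ratio of Notch2 was -0.66.

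Notch3 had 15.6 CPM (247 UMIs), 9.50 (189), 13.8 (218) and 14.1 (231) in these nuclei, lowest in the homozygous library and within 1.5-fold of WT.

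Other measures moved with the cardiomyocyte-like values. Malat1, a nuclear RNA, took 15.4% of UMIs in the corrected, 24.1% in the homozygous, 15.3% in the heterozygous and 14.5% in the WT library. The summed level of all 12 pericyte markers there was 363, 172, 248 and 404 CPM, that of all 10 general endothelial markers 109.6, 76.0, 94.98 and 90.8 CPM. The part of these in the differences was not tested. The genes Jag2, Dll4 and Notch4 can be set beside their capillary-like levels: cardiomyocyte-like nuclei had 4.07 to 11.01 CPM of Jag2 against 83.2 to 98.3, 0.378 to 0.673 CPM of Dll4 against 42.8 to 69.3, and 1.04 to 1.21 CPM of Notch4 against 106 to 162.

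In fibroblast-like nuclei the homozygous library had more Notch4 and less Notch3 and Jag1. Notch4 had 6.24 CPM (55 UMIs) in the corrected, 27.6 (261) in the homozygous, 6.47 (43) in the heterozygous and 3.01 (15) in the WT library. The homozygous level was 9.14 times (5.44 to 16.6) that of WT, and the corrected level was 4.42-fold (3.29 to 6.02) lower than the homozygous. The corrected and heterozygous libraries both lay above WT, at 2.07 times (1.15 to 3.95) and 2.15 times (1.17 to 4.16), on few counts. Nuclei with a Notch4 UMI were 1.43%, 7.32%, 1.87% and 0.783% of fibroblast-like nuclei, at median depths of 2260, 2809, 2684 and 2427 UMIs. In cardiomyocyte-like nuclei, deeper and with next to no Notch4, the shares were 0.547%, 0.805%, 0.697% and 0.572%. By level, WT fibroblast-like nuclei had 3.01 CPM (1.69 to 4.97), against 1.04 CPM (0.606 to 1.66) in WT cardiomyocyte-like nuclei. Thinned to 1000 UMIs, the shares of fibroblast-like nuclei were 0.811%, 2.50%, 0.663% and 0.371%, and those of cardiomyocyte-like nuclei 0.0968%, 0.268%, 0.0820% and 0.0673%. The WT intervals at this equal depth, 0.149% to 0.763% and 0.00815% to 0.243%, overlapped.

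The 10 general endothelial markers, all detected, summed to 579.9 CPM in fibroblast-like nuclei of the corrected library, 354 in the homozygous, 495 in the heterozygous and 599 in WT. Their part in the Notch4 values was not tested. Every fibroblast-like nucleus with a UMI of these markers was then left out, an alternative chosen after seeing the data. This left 1152 of 3639 nuclei in the corrected, 1292 of 3073 in the homozygous, 769 of 2303 in the heterozygous and 630 of 1915 in the WT library. Depth was not matched after it. Notch4 in the nuclei left had 8.43 CPM (21 UMIs), 24.9 (87), 7.41 (14) and 2.76 (4). By cluster, the Cilp-led cluster held 249 of the 261 homozygous UMIs, at 29.3 CPM, and the same cluster had 3, 6 and 1 UMIs in the corrected, heterozygous and WT libraries. In the Col6a6-led cluster, the homozygous library had 14.5 CPM (12 UMIs), against 6.79 (52) in the corrected, 6.23 (34) in the heterozygous and 3.48 (14) in WT. The opposite-strand partner of Notch4, Gm20462, is a processed pseudogene.

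**Figure D4:**
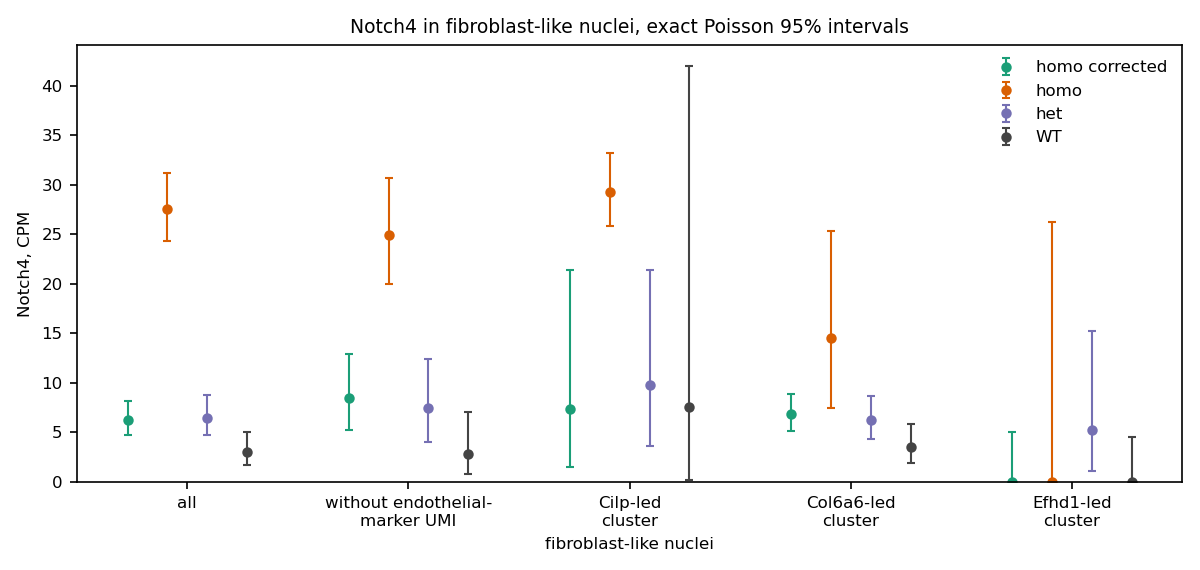
Notch4 in fibroblast-like nuclei of the 4 libraries (CPM, points, with exact Poisson 95% intervals), over all nuclei, without nuclei that had an endothelial marker UMI, and by cluster. The homozygous library is highest over all nuclei (27.6 CPM) and without those nuclei (24.9 CPM).

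Notch3 ran the other way in these nuclei. It had 60.0 CPM (529 UMIs), 22.3 (211), 48.6 (323) and 41.0 (204) in the corrected, homozygous, heterozygous and WT libraries. The homozygous level was 0.544 times (0.446 to 0.662) that of WT and the corrected level 2.69 times (2.29 to 3.18) the homozygous. Mural markers were lowest in the homozygous library too: the 12 pericyte markers summed to 356, 256, 294 and 318 CPM and the 12 smooth muscle markers to 379.8, 181, 290.1 and 258 CPM, with Kcnmb1 at 0 in each library and Sost at 0 in the heterozygous one. Their part in the Notch3 values was not tested.

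Jag1 in fibroblast-like nuclei had 45.9 CPM (404 UMIs), 32.4 (307), 56.4 (375) and 54.9 (273), lowest in the homozygous library, at 0.591 times (0.5005 to 0.698) WT. Heyl had 112, 97.0, 96.4 and 71.7 CPM in the corrected, homozygous, heterozygous and WT libraries, so that WT was lowest, and the corrected level was 1.56 times (1.38 to 1.76) that of WT. In all, 3 of 7 measured genes passed 1.5-fold in fibroblast-like nuclei of the homozygous library against WT, beside 25.8% of all genes.

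In mural cells Hey2 was higher in the homozygous library. Pericyte-like nuclei had 39.2 CPM (100 UMIs) in the corrected, 68.7 (96) in the homozygous, 44.6 (90) in the heterozygous and 32.2 (46) in WT. Smooth muscle-like nuclei had 91.3 CPM (39 UMIs), 141 (54), 109 (31) and 48.1 (9). The order of the libraries was the same in both classes, with the homozygous highest and WT lowest. The ratio of the homozygous library to WT was 2.14 (1.49 to 3.11) in pericyte-like and 2.94 (1.44 to 6.78) in smooth muscle-like nuclei. The ratio of the corrected library to the homozygous one was 0.571 (0.427 to 0.763) and 0.645 (0.416 to 0.992). The 12 fibroblast markers were also highest in the homozygous library in pericyte-like nuclei, at 4615, 5397, 4933 and 4735 CPM, and in smooth muscle-like nuclei were lowest in WT, at 2607, 2494, 2302 and 1779 CPM. Their part was not tested, and fibroblast-like nuclei had 3.18 to 5.87 CPM of Hey2. In cardiomyocyte-like nuclei the homozygous library was the lowest of the 4 for Hey2.

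**Figure D5:**
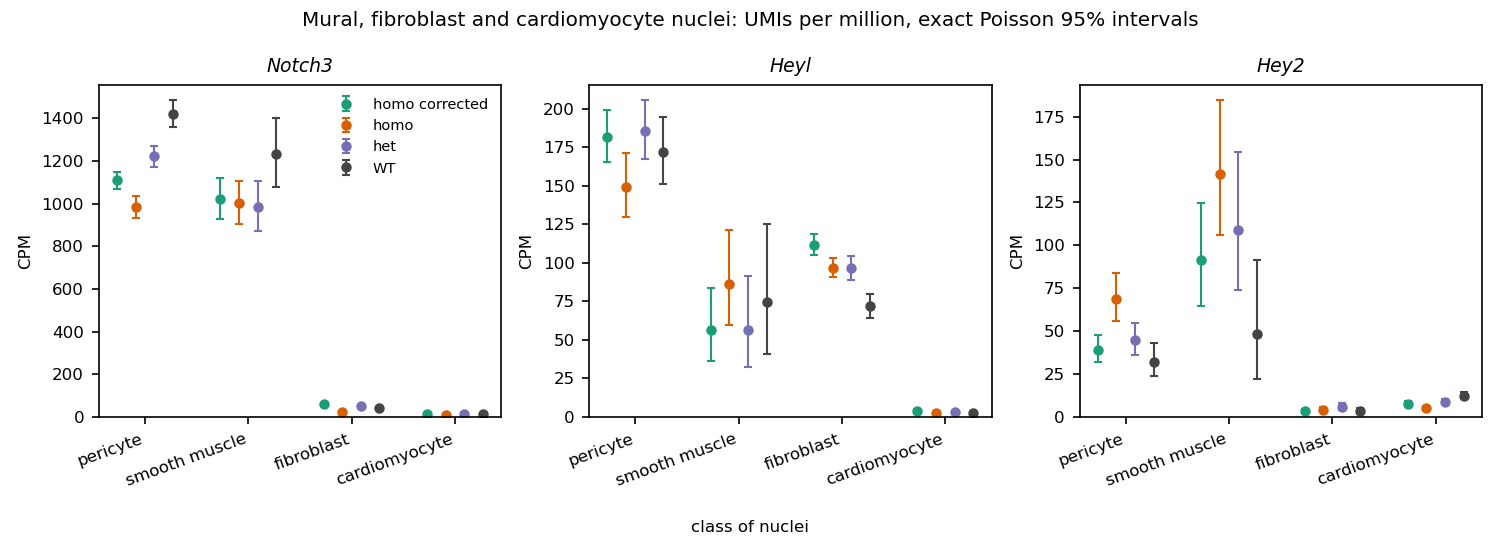
Levels (CPM, points) with exact Poisson 95% intervals (bars) of Notch3, Heyl and Hey2 in pericyte-, smooth muscle-, fibroblast- and cardiomyocyte-like nuclei of the 4 libraries. Hey2 is highest in the homozygous library in pericyte-like (68.7 CPM) and smooth muscle-like nuclei (141 CPM), and Notch3 in pericyte-like nuclei is highest in WT (1422 CPM).

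Notch3 in pericyte-like nuclei was 0.691 times (0.645 to 0.740) the WT level in the homozygous library and 0.780 times (0.737 to 0.826) in the corrected one, differences under 1.5-fold that counting error does not cover. The pericyte markers, all 12 detected, summed to 10466, 7689, 9790.3 and 10207 CPM in the corrected, homozygous, heterozygous and WT libraries, lowest in the homozygous like Notch3. Notch4 in these nuclei had 27.1 CPM (69 UMIs), 58.7 (82), 44.1 (89) and 35.0 (50), highest in the homozygous library at 1.68 times (1.17 to 2.44) WT. The log2 ratio of the corrected to the homozygous library was -1.12, past 1.5-fold in every alternative. The general endothelial markers, all 10 detected, summed to 315, 263, 257 and 316 CPM there, and their part was not tested. The Notch4 ratio of the homozygous library to WT was under 1.5-fold without doublet removal and when thinned, at log2 values of 0.53 and 0.32. Counts were 2 of 7 genes past 1.5-fold in pericyte-like nuclei, beside 23.2% of all, and 2 of 6 in smooth muscle-like nuclei, beside 29.7%.

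Jag1 was at least 1.5-fold lower in the homozygous library than in WT in 5 classes: fibroblast-like, smooth muscle-like, endocardial-like, capillary-like and Kirrel3- and Col13a1-led nuclei. In smooth muscle-like nuclei it had 115 CPM (49 UMIs) in the corrected, 86.5 (33) in the homozygous, 144 (41) in the heterozygous and 144 (27) in the WT library. In Kirrel3- and Col13a1-led nuclei it had 54.1, 41.0, 64.8 and 70.6 CPM, and 0.580 times (0.357 to 0.930) the WT level in the homozygous library, but turned the other way at cluster resolution 1.2, to a log2 ratio of 0.53. The interval left out 1 in these and in fibroblast-like nuclei, and included it in the other 3 classes. The difference fell under 1.5-fold in 3 of 7 alternatives in capillary-like and 2 of 7 in smooth muscle-like nuclei. In Kirrel3- and Col13a1-led nuclei this was 2 of 6, and in fibroblast- and endocardial-like nuclei none. In arterial-like nuclei, where Jag1 is highest, the homozygous library had 387 CPM against 361 in WT.

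In endothelial classes few members passed this size between the homozygous library and WT. None of 6 measured genes passed 1.5-fold in arterial-like nuclei, beside 28.3% of all genes, and 1 of 6 in capillary-like nuclei, beside 24.1%. That gene was Jag1, with an interval that included 1. In endocardial-like nuclei 2 of 4 passed, beside 22.1%: Notch4 was higher, at 59.3 against 38.1 CPM in WT, and Jag1 lower, at 29.6 against 49.0 CPM, both with intervals that included 1. With 16 to 116 UMIs per gene and library for Notch1, Notch4, Dll4, Jag1, Jag2 and Hey1, the interval of the Notch1 ratio in arterial-like nuclei ran from 0.623 to 1.29.

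The corrected library against WT gave 4 of 7 measured genes past 1.5-fold in capillary-like nuclei, 2 higher and 2 lower, beside 16.3% of all genes, and 1 of 6 in arterial-like nuclei, beside 21.7%. In capillary-like nuclei Notch4 had 106 CPM (253 UMIs) in the corrected, 162 (177) in the homozygous, 137 (187) in the heterozygous and 159 (191) in the WT library. Dll4 had 42.8 CPM (102 UMIs), 68.6 (75), 60.9 (83) and 69.3 (83). For both genes the corrected library was the lowest. Its ratio to WT was 0.667 (0.550 to 0.809) for Notch4 and 0.618 (0.458 to 0.837) for Dll4. Notch4 was under 1.5-fold in 5 of 7 alternatives, down to a log2 ratio of -0.36 when thinned, and Dll4 in 1, at -0.51 at cluster resolution 1.2. In arterial-like nuclei Notch4 had 169.6 CPM (54 UMIs) in the corrected library against 279 (51) in WT, a ratio of 0.608 (0.407 to 0.909), which fell under 1.5-fold with at least 500 genes per nucleus. Dll4 in arterial-like nuclei of the corrected library, at 116 CPM, lay within the range of the other 3. Notch1 in capillary-like nuclei was also lowest in the corrected library, at 120.1 CPM against 134 in WT, within 1.5-fold.

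Notch3 and Notch2, which capillary-like nuclei hold at low levels, went the other way. Notch3 in capillary-like nuclei had 26.0 CPM (62 UMIs), 7.32 (8), 21.3 (29) and 14.2 (17), and Notch2 had 34.0, 21.0, 23.5 and 19.2 CPM, both highest in the corrected library. Against the homozygous library 3 of 8 genes were higher and 2 lower, beside 22.6% of all. Notch3 (log2 1.83), Notch2 (0.69) and Jag1, given below, were higher, and Notch4 (-0.61) and Dll4 (-0.68) lower. Of 7 alternatives, Notch3 fell under 1.5-fold in none, Notch2 in 1, Notch4 in 6 and Dll4 in 4. Against WT, Notch2 fell under it in 3. The 12 pericyte markers, all detected, summed there to 242, 129.9, 172 and 177 CPM and the 12 cardiomyocyte markers to 9231, 6585, 6565 and 7698 CPM, while the general endothelial markers were at 10248, 10795, 11063 and 11059.7 CPM. The clusters of capillary-like nuclei also differed between libraries: 1 cluster held 1043, 58, 378 and 475 nuclei and another 71, 565, 209 and 41. The part of these in the Notch4, Dll4, Notch3 and Notch2 values was not tested.

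In macrophage-like nuclei Notch3 had 75.7 CPM (267 UMIs) in the corrected, 51.4 (163) in the homozygous, 132 (329) in the heterozygous and 129 (340) in the WT library. The log2 ratio of the homozygous library to WT was -1.33, but -0.52 at cluster resolution 1.2, which is under 1.5-fold. That of the corrected library to WT was -0.77, but -0.31 without doublet removal and -0.37 at resolution 1.2. The 12 pericyte markers, all detected, summed to 809.5, 413, 989 and 997 CPM in these nuclei, in nearly the order of Notch3, and their part in it was not tested. Notch2, highest in this class, lay within 1.5-fold in all 4 comparisons. Notch4 was lower in the corrected library (20.1 CPM) than in the homozygous (31.6 CPM).

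The heterozygous library's 7 of 61 combinations past 1.5-fold against WT, beside 14.8% of all genes, were Notch4 and Hey2 in fibroblast-like, Hey2 in smooth muscle- and macrophage-like and Notch4 in endocardial-like nuclei, all higher, and Jag2 in arterial-like and Notch1 in Kirrel3- and Col13a1-led nuclei, both lower. The interval left out 1 for 3 of them: Notch4 in fibroblast-like nuclei, Hey2 in smooth muscle-like nuclei, at 2.27 times (1.05 to 5.41) WT, and Notch1, at 78.7 CPM against 124 in WT. Hey2 in macrophage-like nuclei turned to a log2 ratio of -0.27 when thinned to 1000 UMIs per nucleus. Notch1 was at -0.11 at cluster resolution 1.2, and Hey2 in smooth muscle-like nuclei at 0.55 when thinned, both under 1.5-fold.

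The remaining combinations past 1.5-fold for the corrected library had intervals that included 1, apart from Heyl in cardiomyocyte-like nuclei, at 1.57 times (1.04 to 2.41) WT. They were, against the homozygous library, Notch2 in Kirrel3- and Col13a1-led, Jag1 in capillary- and lymphatic-like and Heyl in smooth muscle-like nuclei, and, against WT, Dll4 in macrophage-like and Hey2 in smooth muscle-like nuclei. Dll4 in macrophage-like nuclei turned the other way, to a log2 ratio of 0.58, when thinned.

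The rest of the pathway was followed in 53 further genes. Over the 10 classes, 14 of 319 measured combinations were at least 1.5-fold higher and 28 lower in the homozygous library than in WT, with a median log2 ratio of -0.07, beside the 26.0% of all genes past this size in either direction. The corrected against the homozygous library gave 19 higher and 21 lower of 330, beside 22.1% of all genes. The DNA-binding partner Rbpj had 109 CPM in cardiomyocyte-like nuclei of the corrected library, 76.4 in the homozygous, 97.5 in the heterozygous and 107 in WT, within 1.5-fold. In macrophage-like nuclei, where it was higher in every library, Rbpj had 4283, 2356, 2794 and 2678 CPM, so that the corrected library stood above the other 3, with a log2 ratio of 0.68 to WT and 0.86 to the homozygous library. In arterial-like nuclei Rbpj had 144 CPM (46 UMIs), 70.1 (21), 127 (37) and 120.4 (22), lowest in the homozygous library. Mouse Rbpj has processed pseudogenes that could share its reads, so its levels are uncertain.

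Among the other targets, Hes1, a repressor that Notch switches on in many tissues, was highest in WT in several classes. Cardiomyocyte-like nuclei had 34.6 CPM (549 UMIs), 25.5 (508), 34.6 (548) and 51.1 (836) in the corrected, homozygous, heterozygous and WT libraries. Macrophage-like nuclei had 35.2, 33.4, 34.0 and 59.3 CPM, and smooth muscle-like nuclei 37.4 (16 UMIs), 65.5 (25), 73.8 (21) and 160.2 (30). In each of these classes the 3 mutant or corrected libraries lay below WT. In capillary-like nuclei WT did not stand apart, and Hes1 had 68.5, 57.6, 66.0 and 66.8 CPM. For the list of other targets, 6 of 14 combinations were lower and none higher in the corrected library than in WT, 5 lower and 1 higher of 15 in the homozygous, and 4 lower and none higher of 14 in the heterozygous. Over all genes and classes 16.8%, 26.0% and 14.8% passed in these comparisons.

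Of the other lists in the homozygous library against WT, read beside the 26.0% of all genes, the nuclear complex and corepressors had 3 higher and 8 lower of 113. Maml3, a coactivator of the Notch complex, was lower in capillary-like (193 CPM against 371 in WT, a log2 ratio of -0.94), lymphatic-like (-1.06), pericyte-like (-0.62) and smooth muscle-like nuclei (-0.98). Rbpj was lower in arterial-like nuclei (-0.78), as were the corepressor genes Ctbp1 in endocardial-like (-0.60), Hdac1 in pericyte-like (-0.59) and Tle1 in cardiomyocyte-like nuclei (-1.11). For Rbpj (21 against 22 UMIs) and Ctbp1 (20 against 19) the interval of the ratio included 1. Tle1 was higher in Kirrel3- and Col13a1-led nuclei (0.94) and the acetyltransferase Kat2b in smooth muscle-like nuclei (1.08).

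Receptor turnover and inhibitors had none higher and 4 lower of 53, all of the Deltex family: Dtx2 in Kirrel3- and Col13a1-led (-0.91), Dtx3 in lymphatic-like (-1.06), and Dtx4 in fibroblast-like (-0.88) and macrophage-like nuclei (-0.81). Metalloproteases and gamma-secretase had 6 higher and 4 lower of 62. The gamma-secretase subunit Psenen was higher in fibroblast-like (0.73), pericyte-like (1.08) and Kirrel3- and Col13a1-led nuclei (0.96), and Psen2 was higher in endocardial-like (0.73) but lower in cardiomyocyte-like nuclei (-0.95). For Psenen in Kirrel3- and Col13a1-led and Psen2 in endocardial-like nuclei the interval included 1. The subunit Aph1c was lower in cardiomyocyte-like (-1.23) and macrophage-like nuclei (-0.59), the latter with an interval that included 1. The metalloprotease Adam17 was higher in capillary-like (0.77) and lower in endocardial-like nuclei (-0.67), and Adam10 had 32 UMIs in smooth muscle-like nuclei of the homozygous library against 3 in WT, a ratio of 5.23 (1.64 to 26.7).

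Ligand endocytosis had 2 higher and 4 lower of 40. Neurl1b, a ubiquitin ligase for Notch ligands, had 8.45 CPM (80 UMIs) in fibroblast-like nuclei of the homozygous library against 1.41 (7) in WT. It was lower in macrophage-like nuclei (-0.80), with an interval that included 1. Neurl1a was higher in cardiomyocyte-like nuclei (0.68), the ligase Mib2 lower in pericyte-like nuclei (-0.69), and the epsin Epn1 lower in endocardial-like (-1.04) and lymphatic-like nuclei (-1.06). Receptor glycosylation and first cleavage had 2 higher and 3 lower of 33. Furin, the protease of the earliest receptor cleavage, had 40.2 CPM in cardiomyocyte-like nuclei of the homozygous library against 21.0 in WT. The glycosyltransferase Lfng had 29 UMIs in macrophage-like nuclei of the homozygous library against 6 in WT, a ratio of 4.01 (1.64 to 11.8), and Pofut1, which adds fucose to the receptors, was lower in endocardial-like (-0.88), macrophage-like (-0.70) and pericyte-like nuclei (-0.68). For Pofut1 in endocardial-like nuclei (19 against 22 UMIs) the interval included 1. Of the targets other than Hes1, Hes7 had 37 UMIs in fibroblast-like nuclei of the homozygous library against 1 in WT, a ratio of 19.4 (3.28 to 788.6), Hes6 was lower in cardiomyocyte-like (-0.70) and Nrarp in pericyte-like nuclei (-1.17).

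Genes with the pattern nearest to each member over the 40 class and library sums were named by Pearson's r of log2(CPM + 1), with no p-value because the points share libraries and depth. Notch1 was nearest to Rgs3 (0.952) and Dock6 (0.940), Notch2 to Tep1 (0.872) and Wls (0.832), Notch3 to Rasl12 and Mrvi1 (0.951 each), and Notch4 to Lrrc8c (0.914) and Arhgap31 (0.882). Dll4 was nearest to Btnl9 (0.898) and Ldb2 (0.882), Jag1 to Sept11 (0.914) and Afap1l2 (0.888), and Jag2 to Rapgef1 (0.909) and Adgrg1 (0.904). Of the targets, Hey1 was nearest to Mannr (0.860) and Sema3g (0.811), Hey2 to Slc4a8 (0.776) and Fam81a (0.774), and Heyl to Naalad2 (0.937) and Ebf2 (0.926). Btnl9, Sema3g and Mrvi1 are themselves markers that named the capillary, arterial and smooth muscle classes.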

How the data were processed

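Single-nucleus RNA (10x Genomics 3′ v3) was deposited as raw UMI counts per gene and barcode, whole numbers that the authors had not normalized. Cell Ranger 6.1.1 and Seurat 4 with the build mm10 (GRCm38) are named in the submitters' processing notes, and Cell Ranger 4.0.0 stands in the headers of the matrices. Intron counting, strand use and barcode filtering are not given in the sources used here. Barcodes with fewer than 300 genes or over 5% mitochondrial UMIs were dropped, 196 from the corrected, 99 from the homozygous, 114 from the heterozygous and 100 from the WT library. The highest Scrublet scores, 0.8% per 1000 barcodes, were removed as doublets (1790, 1060, 740 and 706 nuclei). Scrublet's own threshold marked 2991, 1, 0 and 0 and was not used. This left 13167, 10452, 8880 and 8688 nuclei.

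Counts were scaled to 10000 and clustered with scanpy 1.11.5 and leidenalg 0.10.2 (2000 variable genes, 30 principal components, 20 neighbours, resolution 0.8). Endothelial nuclei were clustered again alone. The Notch genes were left out of the variable genes. Clusters were named from marker lists with thresholds set after the data were seen. The genes and lists were chosen with earlier results of these data known. UMIs were summed per class and library. Ratios use total non-mitochondrial UMIs, with TMM (edgeR 4.0.16) and median-of-ratios factors as alternatives. A difference counts from 1.5-fold with at least 30 UMIs in both libraries together, and between classes from 2-fold in each of 4 libraries. The naming rule took in genes of the wider Notch list past 1.5-fold in a class described, with Rbpj and Hes1 in any case. Those of the homozygous library against WT are named, apart from 1 that is not reported here, and the other comparisons are given as counts. The 2 nearest genes by r among those with at least 200 UMIs are named too. The ratio and interval code was tested on simulated data. Gene positions come from the GRCm38 annotation.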

Additional observations from a re-analysis of the deposited data

Results flagged for a closer look

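Hey2, Notch4 and Notch3 differed in opposite directions between classes under the same comparison of libraries. None of these differences was tested, since each genotype has 1 library. For Hey2, the log2 ratio of the homozygous library to WT was 1.09 in pericyte-like and 1.56 in smooth muscle-like nuclei but -1.35 in ventricular cardiomyocyte-like nuclei. For the corrected against the homozygous library, Hey2 turned the other way in each, at -0.81 in pericyte-like, -0.63 in smooth muscle-like and 0.65 in cardiomyocyte-like nuclei. These comparisons share the homozygous library. For Notch4, the log2 ratio of the corrected library to WT was 1.05 in fibroblast-like nuclei, -0.72 in arterial endothelial-like and -0.59 in capillary endothelial-like nuclei. For Notch3, it was 0.88 in capillary-like and -0.77 in macrophage-like nuclei. Those of Notch4 in capillary-like and arterial-like nuclei, of Notch3 in macrophage-like nuclei, and of Hey2 in smooth muscle-like and cardiomyocyte-like nuclei for the corrected against the homozygous library were under 1.5-fold in at least 1 alternative.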

How the results depend on the processing

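Over 54 single results and 379 alternatives, 358 kept their value within counting error, 18 moved and 3 changed direction. Those 3 were Jag1 in Kirrel3- and Col13a1-led nuclei, homozygous against WT, at a log2 ratio of 0.53 with cluster resolution 1.2, and, thinned to 1000 UMIs per nucleus, Dll4 in macrophage-like nuclei, corrected against WT, at 0.58, and Hey2 in macrophage-like nuclei, heterozygous against WT, at -0.27. The cause was not tested. Counts of differences depend on the size and depth asked for. The homozygous library against WT gave 15, but 9 with at least 100 UMIs, 35 with at least 1 UMI and 6 at 2-fold. The corrected against the homozygous gave 20, but 45 with at least 1 UMI and 5 at 2-fold. The corrected against WT gave 12, but 42 with at least 1 UMI and 1 at 2-fold. The heterozygous against WT gave 7, but 2 when thinned, 1 with at least 100 UMIs, 28 with at least 1 UMI and 2 at 2-fold. Arterial genes numbered 3 at 2-fold and 5 at 1.5-fold. Jag1 and Hey1 were among them in every alternative run, and Hey2 was not when thinned or with at least 100 UMIs. Thinning lowered the shares of nuclei with a UMI, for Notch4 in fibroblast-like nuclei to 0.811%, 2.50%, 0.663% and 0.371% and for Notch3 in pericyte-like nuclei to 63.5%, 60.8%, 67.5% and 68.5% (corrected, homozygous, heterozygous and WT). Of the 20 genes nearest to the members, 11 were named with a pseudocount of 10. Notch3 in macrophage-like nuclei, homozygous against WT, had a log2 ratio of -0.89 without doublet removal and -0.52 at resolution 1.2, against -1.33, so that it passed 1.5-fold in the first and not in the second. In all, 31 of the 54 fell under 1.5-fold in at least 1 alternative. Notch4 in fibroblast-like nuclei, corrected against homozygous, had -1.71 when thinned and, in the alternative chosen after seeing the data, -1.56 without nuclei with an endothelial marker UMI, against -2.14. Leaving out a replicate was not possible with 1 library per genotype. No paired analysis was possible because each genotype has 1 library.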
